A study of Mus musculus with 2 samples.

Results

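The nuclear genes of respiratory complexes II, III, IV and V, with their assembly factors and cytochrome c, were examined for binding of GABPα in mouse CD4+ T cells. Members were the protein-coding nuclear genes of the GENCODE M21 annotation with the symbols Sdha to Sdhd, those that begin with Sdhaf, Uqcr or Uqcc, the subunit genes from Cox4i1 to Cox8c, the assembly genes from Cox10 upward, and those that begin with Atp5 other than Atp5j. Cyc1, Cycs, Sco1, Sco2 and Surf1 completed the set. The rule gave 68 gene records of 21938 protein-coding nuclear genes, and these carry 67 symbols because Atp5o is annotated with 2 records. A gene was scored as having a peak when a deposited interval lay within 1000 bp of the start of any of its transcripts. CD4+ T cells of wild-type C57BL/6 mice, purified on magnetic beads, gave 1 library of DNA precipitated with an antibody to GABPα (sc-22810X) and 1 library of input DNA for which no antibody was used. The input served only as the control in the authors' peak calling. Neither the number of mice behind the libraries nor a pooling of animals is given in the sources used here.

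The deposited list holds 6782 peaks with their positions on mm10 and no height, fold enrichment or q value. Position, width and the underlying sequence are therefore the measurements available, the depth of the libraries is unknown, and a peak marks binding in 1 library without a replicate. No p-value can be given, and the 95% intervals quoted with shares are Wilson intervals that cover counting error only. A list of binding sites holds no expression, so the labelled cell type could not be checked against its marker genes, and which of the genes were transcribed in these cells was not measured here.

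Complex II (succinate dehydrogenase) passes electrons from the citric acid cycle to ubiquinone, complex III passes them on to cytochrome c, and complex IV (cytochrome c oxidase) transfers them to oxygen, while complex V (ATP synthase) uses the resulting proton gradient to make ATP. All subunits of complex II and most subunits of the others are encoded in the nucleus, and several complex IV subunits exist as a broadly expressed isoform and one restricted to heart and muscle, lung or testis. GABP, also known as nuclear respiratory factor 2, is a complex of the ETS-family DNA-binding protein GABPα with GABPβ, recognises GGAA cores within sites such as CCGGAAG, and was first linked to respiration through genes of cytochrome c oxidase.

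GABPα peaks lay at genes of all 4 complexes, including the iron-sulfur subunit Sdhb, the Rieske protein Uqcrfs1, the oxidase subunits Cox4i1 and Cox5b, and both catalytic-head subunits Atp5a1 and Atp5b, and were absent from the flavoprotein Sdha, cytochrome c1 (Cyc1), cytochrome c (Cycs), the oxidase subunit Cox5a and the genes of the ATP synthase c-ring. Of the 68 records, 33 had a peak (48.5%, 95% interval 37.1 to 60.2), against 17.7% of all protein-coding nuclear genes (3880 of 21938). Each of the 33 had 1 peak and no peak was shared between members. Some of these peaks, such as those of Cox4i1 and Atp5a1, also covered a start of a gene outside the set. The farthest peak that counted lay 292 bp from a start (Cox20) and the nearest that did not lay 1390 bp away (Sdhaf1).

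Sites under the peaks are shown for the key subunits and isoform families, because their letters and position are what the list of intervals does not give. Each line holds the CCGGAAG nearest the middle of the peak, or the CGGAAG where the longer motif was missing, read from the GRCm38.p6 genome 5′ to 3′ on the strand that carries the motif, with the motif in capitals and 10 bases to either side.
Sdhb (chr4:140961267-140961293, plus strand): ctcggagaaaCCGGAAGcggccttcca
Sdhd (chr9:50603879-50603905, plus strand): gaagcgtgaaCCGGAAGgcaggagacg
Uqcrh (chr4:116075064-116075090, plus strand): ggcgacctggCCGGAAGtgcggcatac
Uqcrq (chr11:53430810-53430836, minus strand): tccgctcctcCCGGAAGtgacgggcga
Cox4i1 (chr8:120668259-120668285, minus strand): gggcccgcaaCCGGAAGaccaagacgg
Cox5b (chr1:36691547-36691573, plus strand): cagcctgttcCCGGAAGtgcatctgct
Cox6a1 (chr5:115348958-115348984, plus strand): caccggcgcgCCGGAAGcggaaatggg
Cox6b1 (chr7:30626126-30626152, plus strand): ttccgactggCCGGAAGctgcgagagg
Cox7a2 (chr9:79759804-79759829, plus strand): ccatagagagCGGAAGgcgagccaga
Cox8a (chr19:7217605-7217631, plus strand): gacgcccgagCCGGAAGtatttcggaa
Surf1 (chr2:26916356-26916382, minus strand): gagcgccgtcCCGGAAGgaagcagatt
Sco1 (chr11:67052615-67052641, minus strand): tccgcttctgCCGGAAGccgaaggagg
Atp5c1 (chr2:10080583-10080608, minus strand): acaaagcggtCGGAAGcggaactggc
Atp5e (chr2:174464187-174464213, plus strand): cgagcggctaCCGGAAGctgtggccgt
Atp5h (chr11:115419941-115419967, plus strand): aagagagttgCCGGAAGttctctcctt
Atp5k (chr5:108434371-108434397, plus strand): gaccttcgcgCCGGAAGctcaactgag

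CCGGAAG, counted on both strands, occurred in 24 of the 33 member peaks (72.7%, 55.8 to 84.9), against 57.2% of the 3459 peaks within 1000 bp of any coding gene start and 31.7% of the whole list. The 57.2% at coding gene starts lies within the members' interval. The 31 copies had no fixed orientation, 14 lying on the strand of the gene and 17 on the other. In 23 of the 24 genes with the motif its nearest copy lay within 50 bp of the middle of the peak, and the median distance was 12.5 bp. Cox16 was the exception, with its nearest copy 134 bp from the middle of a wide peak that holds 1 copy on each side. The copy was chosen as the nearest within the peak, so closeness to the middle is partly a property of the choice. The same distance was not measured over other peaks. The base that followed the motif was T in 15 of the 31 copies (48.4%), as in Cox5b, Uqcrh and Uqcrq, C in 8, G in 6 and A in 2. The A copies were both in Cox4i1. Over the 2572 copies in all peaks at coding gene starts T followed in 46.5%.

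**Figure D1:**
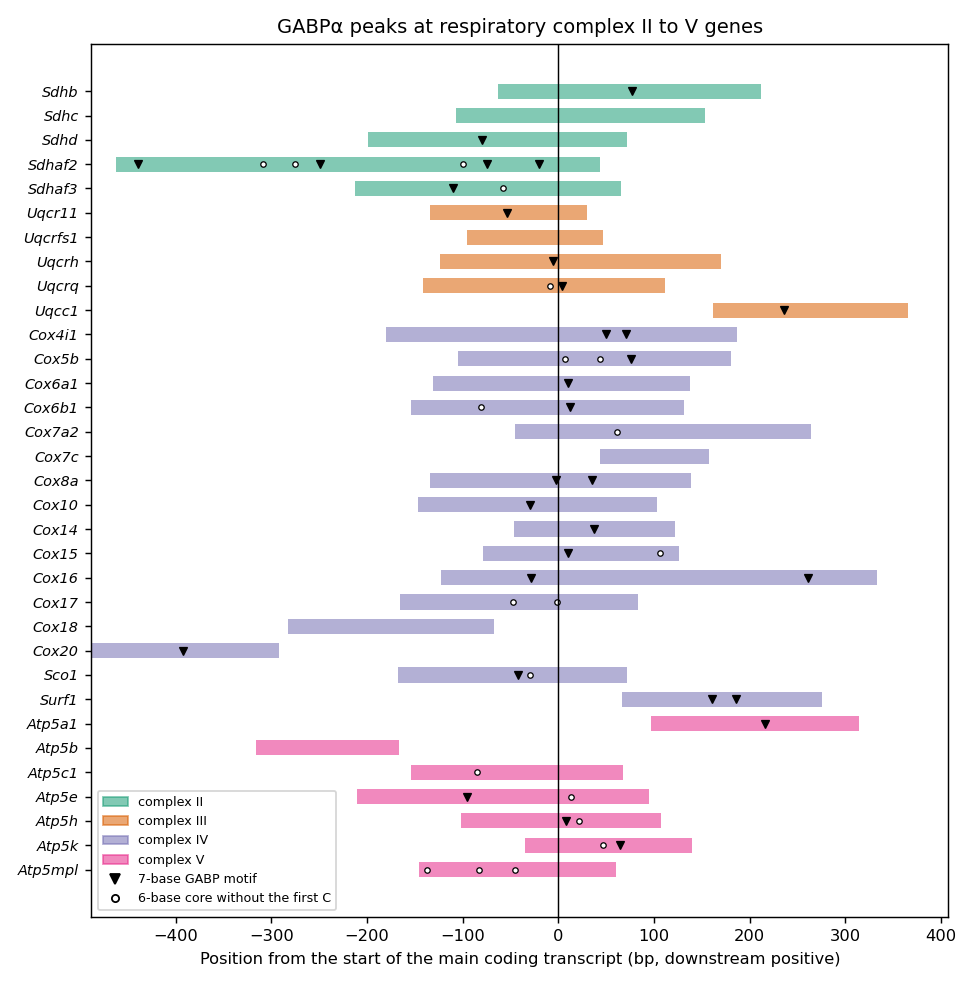
Position of the peak at each of the 33 genes with a peak, in bp from the start of the main coding transcript with downstream positive (horizontal axis), 1 bar a gene coloured by complex. Filled triangles mark CCGGAAG and open circles mark CGGAAG without the first C; 26 bars cross the start line, and the 7 that do not are Uqcc1, Cox7c, Cox18, Cox20, Surf1, Atp5a1 and Atp5b.

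The rule takes peaks near starts, so closeness to a start is a property of the choice. In the plot of peak positions, 26 of 33 covered the start of the main coding transcript and 30 covered the start of some transcript of the gene (90.9%, 76.4 to 96.9). Over all coding genes with a peak, 3044 of 3880 (78.5%) had a start covered, which lies within that interval. The middle of the peak lay a median of 2.5 bp downstream of the main start, with extremes of -390 (Cox20) and 263.5 bp (Uqcc1) where downstream is positive, and within 100 bp of it in 23 genes. Surf1, Uqcc1, Cox7c and Atp5a1 had their peak on another transcript start of the same gene, downstream of the main one. The peaks of Cox20, Atp5b and Cox18 covered no annotated start, and lay 292, 167 and 67 bp upstream. By annotation, 28 of the 33 peaks reached sequence upstream of the gene, 30 reached 5′ UTR, 18 coding exon and 13 intron. The sites themselves were about as often downstream as upstream of the start: the nearest copies of CCGGAAG lay at a median of 6 bp downstream of it, and 13 of 24 were downstream.

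Complex II oxidises succinate through the flavoprotein Sdha and the iron-sulfur protein Sdhb, which are held in the inner membrane by Sdhc and Sdhd. It had a peak at 5 of its 8 genes (62.5%, 30.6 to 86.3). The peak at Sdhb (chr4:140961140-140961415, 276 bp) was wider than 87.4% of the whole list, and its CCGGAAG lay 77 bp downstream of the start. Among the peaks at coding gene starts, which are wider, the upper quartile of width was 267 bp. The peak at Sdhd was 272 bp wide, with its CCGGAAG 80 bp upstream of the start. The peak at Sdhc, the other membrane anchor, was 261 bp wide and held neither CCGGAAG nor CGGAAG, only the GGAA core in 5 copies. Thus 3 of the 4 subunit genes were bound and the widths of the 3 peaks differed by little. Sdha had no peak at its main start: the nearest peak lay 6832 bp from any of its starts and 32856 bp from the main one, and covered the start of Pdcd6. Its promoter window, taken as the 250 bp before and 50 bp after the main start, held 24 CG dinucleotides and 2 GGAA but no CGGAAG.

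Assembly of complex II depends on Sdhaf2, which is needed to attach FAD to Sdha, on Sdhaf1 and Sdhaf3, which serve the iron-sulfur clusters of Sdhb, and on Sdhaf4, which acts on free Sdha. Sdhaf2 had the widest peak of all members (chr19:10525071-10525577, 507 bp), wider than 99.1% of the list, with 4 copies of CCGGAAG and 7 of CGGAAG in all. The peak at Sdhaf3 was 279 bp wide and held 1 CCGGAAG and a second CGGAAG 52 bp away. The peak nearest to Sdhaf4 was 83133 bp away. Sdhaf1 was without a peak by the GENCODE annotation, which gives it a single transcript, but a peak of 216 bp lay 1390 bp inside that transcript (chr7:30322290-30322505), in its 5′ UTR and coding exon. The RefSeq record of the same build places the start of Sdhaf1 at 30322375, within this peak and 1520 bp from the GENCODE start. With that start Sdhaf1 would be a bound gene, and the counts would be 6 of 8 for complex II and 34 of 68 in all. The call for this gene thus depends on which annotated start is used, and which start these cells use was not tested. Its site lay on the strand opposite to the gene, centred 10 bp downstream of the RefSeq start. It is shown for comparison with the bound genes and does not decide between the starts.
Sdhaf1 (chr7:30322352-30322378, plus strand): cccacactggCCGGAAGgaccgccccg

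Complex III carries electrons through the Rieske iron-sulfur protein Uqcrfs1 and cytochrome c1 (Cyc1), around which sit the core proteins Uqcrc1 and Uqcrc2 and small subunits. It had a peak at 5 of 12 genes (41.7%, 19.3 to 68.05), 4 of 9 subunits and 1 of 3 assembly factors. Uqcrh, the acidic hinge protein that helps cytochrome c1 meet cytochrome c, had the widest of them (chr4:116074901-116075195, 295 bp) with CCGGAAG 6 bp upstream of the start. Uqcrq, a small ubiquinone-binding subunit, had a peak of 254 bp with CCGGAAG 4 bp downstream. Uqcr11, another small subunit, had a peak of 165 bp with 1 CCGGAAG. These 3 peaks each held 1 copy of the motif within 54 bp of the start. The peak at Uqcrfs1 was among the narrowest of the members (143 bp) and lacked both CCGGAAG and CGGAAG. Uqcc1, a factor needed for cytochrome b synthesis, had a peak of 204 bp over internal transcript starts, 162 bp downstream of its main start.

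The remaining 7 complex III genes had no peak. Both core proteins were among them, with the nearest peak 134048 bp from Uqcrc1 and 26130 bp from Uqcrc2. Cyc1 lay 6002 bp from a peak that covered the start of Sharpin. The nearest peaks to the small subunits Uqcrb and Uqcr10 were 61780 and 145133 bp away, and those to the assembly factors Uqcc2 and Uqcc3 were 160272 and 7860 bp away. None of the 7 promoter windows held CGGAAG. Cycs, which encodes the mobile carrier between complexes III and IV in somatic cells, had its nearest peak at 30156 bp and 1 copy of the NRF1 motif but no CGGAAG in its promoter window.

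**Figure D2:**
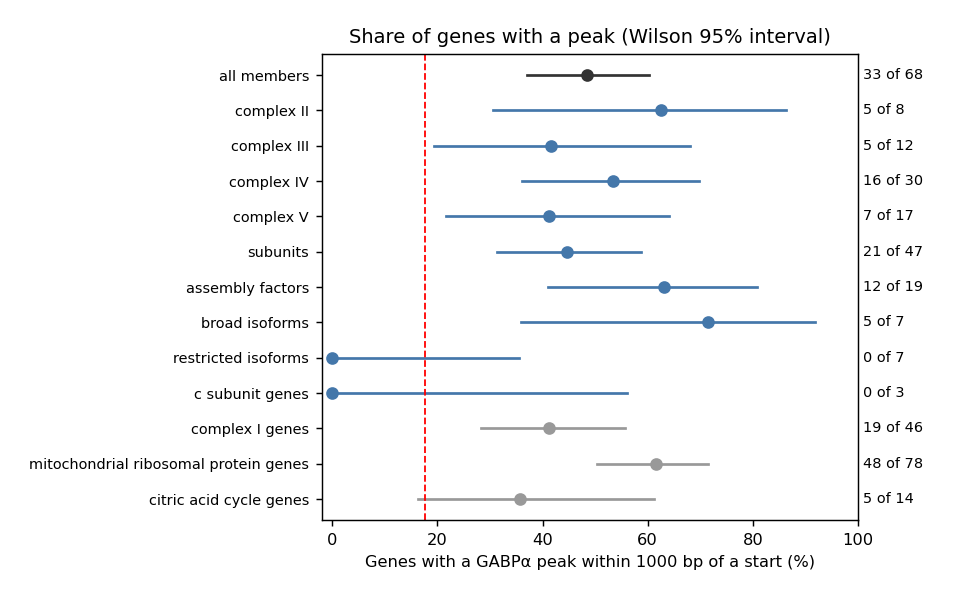
Share of genes scored as having a peak, in percent (horizontal axis), for the members by complex, role and isoform class (blue) and for 3 other groups of mitochondrial genes (grey); bars are Wilson 95% intervals and the dashed line is the 17.7% of all protein-coding nuclear genes. Broad isoforms stand at 5 of 7 and restricted isoforms at 0 of 7.

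Complex IV had a peak at 16 of 30 genes (53.3%, 36.1 to 69.8), 7 of 18 subunits and 9 of 12 assembly factors. Its nuclear subunits surround a catalytic core encoded by mitochondrial DNA, and 6 of the subunits are encoded by families in which a broadly expressed gene has a relative restricted to heart and muscle, lung or testis. Broad isoforms had a peak in 5 of 7 genes (71.4%, 35.9 to 91.8) and restricted isoforms in 0 of 7, for which the interval reaches 35.4%. The share of all coding genes, 17.7%, lies inside the interval of the restricted genes and below that of the broad ones. The classes of isoform are textbook knowledge and the difference between them was not tested.

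Cox4i1, the broad form of the subunit that binds nucleotides and regulates the enzyme, had a peak of 368 bp (chr8:120668042-120668409) that covered its main start and held 2 copies of CCGGAAG 21 bp apart on 1 strand. For Cox4i2, the lung form, the nearest peak was 76473 bp away. Cox6a1 had a peak of 270 bp and Cox6b1 one of 286 bp, with CCGGAAG 10 and 12 bp downstream of their main starts. Their relatives Cox6a2, of heart and muscle, and Cox6b2, of testis, had their nearest peaks at 31116 and 39667 bp. In these families only the broad member was bound.

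Cox7a2 had a peak of 310 bp with 1 CGGAAG and no CCGGAAG, while Cox7a1, its relative in heart and muscle, lay 84533 bp from a peak. Cox7a2l, the broadly expressed relative described as a factor of supercomplexes of III and IV, was unbound as well, with its nearest peak at 137402 bp. It was counted here as a complex IV subunit and a broad isoform. Cox8a had a peak of 274 bp with 2 copies of CCGGAAG, centred 2 bp upstream and 35 bp downstream of the start. Cox8b, of heart and muscle, lay 17945 bp from a peak that covered the starts of Psmd13 and Sirt3, and Cox8c, of testis, lay 141350 bp from one. The Cox7b family had no bound member. The peak nearest to Cox7b covered the start of Atp7a, and lay 7701 bp from the nearest start of Cox7b and 11392 bp from its main start. Cox7b2, of testis, lay 363265 bp from a peak. The plot of nearest peaks by isoform shows the 5 bound broad genes apart from all others, the closest of which is Cox7b.

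**Figure D3:**
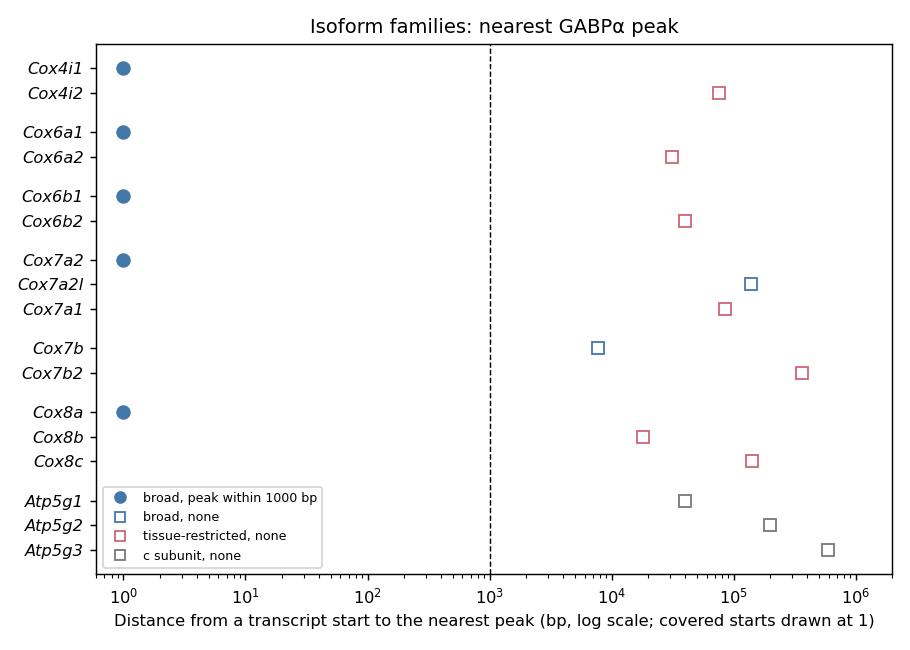
Distance in bp from a transcript start to the nearest peak (log axis, covered starts drawn at 1) for the isoform families of complex IV and the 3 genes of the ATP synthase c subunit. Filled circles are broad isoforms with a peak, open blue squares broad isoforms without one, red squares restricted isoforms and grey squares c-subunit genes; the dashed line marks 1000 bp.

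Of the 4 complex IV subunits encoded by 1 gene each, Cox5b and Cox7c had a peak. Cox5b, which binds zinc, had a peak of 287 bp (chr1:36691379-36691665) with CCGGAAG 76 bp downstream of its start and 2 further copies of CGGAAG, all 3 on the strand of the gene and 36 and 33 bp apart. A share of 70.2% of the 36-base sequences in this peak, the length of the reads, occur 1 time in the genome, the lowest among the members, since 30 of the 33 peaks are unique throughout. Cox7c had the narrowest member peak (114 bp), with no CGGAAG, over 1 of its 4 starts. Cox5a lay 68051 bp and Cox6c 235650 bp from the nearest peak. The promoter windows of both differ widely in GC content, at 69.0% and 38.0%, and neither held CCGGAAG. That of Cox5a held 1 CGGAAG and that of Cox6c held none.

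Assembly factors of complex IV were bound in 9 of 12 cases (75%, 46.8 to 91.1). Cox10 and Cox15, the enzymes that make heme A, had peaks of 251 and 206 bp with CCGGAAG 30 bp upstream and 10 bp downstream of the start. Among the proteins that deliver copper, Cox17 had a peak of 249 bp with 2 CGGAAG and Sco1 a peak of 241 bp with CCGGAAG 42 bp upstream of the start, while Cox11, Cox19 and Sco2 had none. The nearest peaks to those 3 genes were 1459958, 189291 and 17953 bp away, so the copper route was bound in part. Cox18 and Cox20, which help insert and stabilise the mitochondrially encoded subunit Cox2, had peaks of 217 and 197 bp upstream of their starts. Cox14, an early factor for Cox1, had a peak of 169 bp, and Cox16, which also acts on Cox2, one of 457 bp, the second widest among members. Surf1, a factor whose human gene is mutated in Leigh syndrome, had a peak of 210 bp (chr2:26916254-26916463) with 2 copies of CCGGAAG 25 bp apart on 1 strand.

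Complex V had a peak at 7 of 17 records (41.2%, 21.6 to 64.0). The alpha and beta subunits of the catalytic head and the gamma subunit of the central stalk, Atp5a1, Atp5b and Atp5c1, all had a peak. Their peaks measured 218, 150 and 223 bp, and only that of Atp5a1 held CCGGAAG. The peak of Atp5a1 lay 97 bp downstream of its main start and also covered a start of Haus1. That of Atp5c1 also covered a start of Kin, so neither peak can be assigned to either gene alone. The peak at Atp5b (chr10:128082957-128083106) held no CGGAAG and lay upstream of every start. Among the other subunits, Atp5e (epsilon, central stalk) had a peak of 306 bp and Atp5h (d, peripheral stalk) one of 210 bp. Atp5k (e) and Atp5mpl, both small proteins of the membrane part, had peaks of 176 and 207 bp. The peak at Atp5h held CCGGAAG 8 bp downstream of the start and a second CGGAAG 14 bp from it, and that at Atp5mpl held 3 copies of CGGAAG without the first C.

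The 3 genes for the c-ring, Atp5g1, Atp5g2 and Atp5g3, encode the same mature protein and none had a peak. Their nearest peaks lay 40061, 197174 and 597703 bp away. Of the peripheral stalk, Atp5f1 (b) lay 62138 bp from a peak and both records of Atp5o, the oligomycin-sensitivity protein, lay 197845 and 198143 bp from one. Atp5d (delta, central stalk) lay 16006 bp and Atp5j2 (f, membrane part) 9750 bp from a peak, the latter covering the start of Zkscan14. Atp5s, which encodes a coupling factor and not a subunit, had its nearest peak at 249290 bp. Atp5l (g, membrane part) was the one unbound member with CCGGAAG in its promoter window. It held 2 copies, 27 bp downstream and 209 bp upstream of the start, and its nearest peak was 44696 bp away at Ube4a. Both copies are shown because their letters are the same 7 as in the bound genes.
Atp5l downstream (chr9:44920702-44920728, plus strand): aatgtcacccCCGGAAGgacccgcggc
Atp5l upstream (chr9:44920938-44920964, plus strand): tcatgttggtCCGGAAGatcggtgaag

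Taking the members by role, assembly factors had a peak in 12 of 19 genes (63.2%, 41.0 to 80.9) and subunits in 21 of 47 (44.7%, 31.4 to 58.8). The intervals overlap, and so do those of the 4 complexes. For scale, genes of complex I with symbols in Nduf had a peak in 19 of 46 cases (41.3%, 28.3 to 55.7), mitochondrial ribosomal protein genes in 48 of 78 (61.5%, 50.4 to 71.6) and citric acid cycle enzymes in 5 of 14 (35.7%, 16.3 to 61.2). The members' share of 48.5% lies between these, and each of the 3 intervals overlaps theirs.

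Peak width was the remaining value for each peak. Member peaks had a median width of 249 bp, with quartiles of 206 and 279 bp, against 210 bp (159 to 267) for all peaks at coding gene starts. The medians were 276 bp in complex II, 204 bp in complex III, 250 bp in complex IV and 210 bp in complex V. The 5 widest were at Sdhaf2 (507 bp), Cox16 (457 bp), Cox4i1 (368 bp), Cox7a2 (310 bp) and Atp5e (306 bp), and the 3 narrowest at Cox7c (114 bp), Uqcrfs1 (143 bp) and Atp5b (150 bp). In the plot of widths all 3 narrowest peaks are open circles. The upper quartile of width in the whole list was 224 bp, and 18 of the 33 member peaks reached it. All 5 peaks of complex II and all 5 of the broad isoforms did, but only 1 of 7 in complex V (Atp5e) and 2 of 5 in complex III (Uqcrh and Uqcrq). The 18 are 54.5% of the bound members (38.0 to 70.2), and over all coding genes with a peak 1844 of 3880 (47.5%) had one of this width, which lies within that interval.

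**Figure D4:**
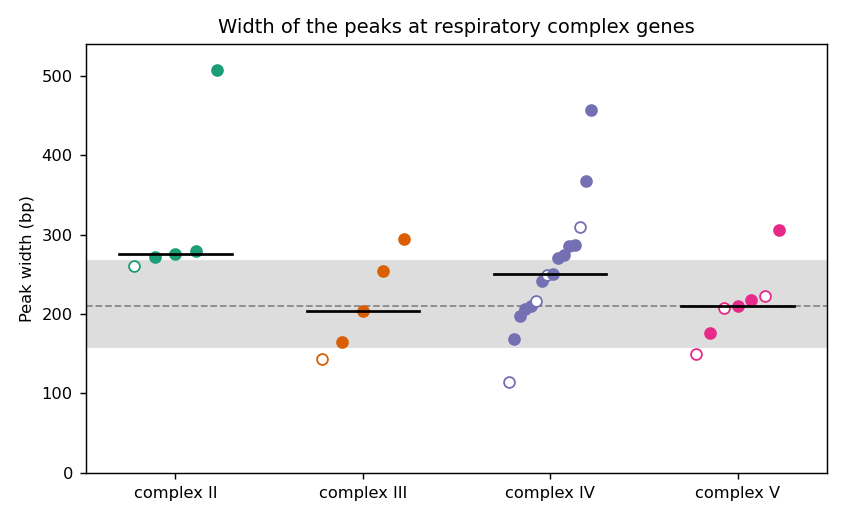
Width in bp of each member peak (vertical axis) by complex; filled circles hold CCGGAAG, open circles do not, and black bars are medians. The dashed line and grey band are the median (210 bp) and quartiles (159 and 267 bp) of the 3459 peaks within 1000 bp of a coding gene start.

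The peaks without CCGGAAG were 9, at Sdhc, Uqcrfs1, Cox17, Cox18, Cox7a2, Cox7c, Atp5b, Atp5c1 and Atp5mpl. Of these, Cox17, Cox7a2, Atp5c1 and Atp5mpl held the 6-base core CGGAAG, so that 28 of 33 peaks (84.8%, 69.1 to 93.3) held it, against 76.6% of all peaks at coding gene starts. The 76.6% lies within the members' interval. GGAA, which is frequent by its length, was in all 33 and in 98.8% of the peaks at coding gene starts. At least 2 CGGAAG were in 16 of the 33 peaks (48.5%), against 33.3% at coding gene starts. For at least 2 CCGGAAG the shares were close, at 5 of 33 (15.2%) against 13.9%. No interval was computed for these shares of peaks with several copies, and the differences were not tested. Member peaks were also wider (median 249 against 210 bp), and the part of width in these shares was not tested. Neighbouring copies of CGGAAG formed 23 pairs, 12 on the same strand and 11 on opposite strands. In 12 peaks a pair had starts no more than 60 bp apart. The closest pairs, 13 bp from start to start and on opposite strands, were in Sco1 and Uqcrq. Those of Atp5h and Atp5k, on 1 strand, were 14 and 17 bp apart.

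Promoter sequence was then read for all 68 records and not only for those with a peak. CCGGAAG was in the promoter window of 18 of the 33 bound genes (54.5%) and of 1 of the 35 unbound (2.86%), against 11.2% of all protein-coding genes. Read the other way, 18 of the 19 members with the motif had a peak (94.7%, 75.4 to 99.1), as did 15 of the 49 without it (30.6%, 19.5 to 44.5). Over all coding genes the shares were 70.0% of 2461 and 11.1% of 19477. CGGAAG was in 24 of the 33 bound and 4 of the 35 unbound windows, and in 20.7% of all. Over the 3880 coding genes with a peak, 44.4% held the longer motif in the window and 62.9% this 6-base core. For 3 other factors of housekeeping promoters the exact letters were counted on both strands. The NRF1 motif GCATGCGC was in 5 bound and 4 unbound windows (15.2% and 11.4%, all genes 3.73%). The YY1 motif AAGATGGC was in 4 and 1 (12.1% and 2.86%, all genes 3.09%), and the SP1 motif GGGCGG in 20 and 12 (60.6% and 34.3%, all genes 45.5%). Over all coding genes with a peak the shares were 5.75% for NRF1, 5.95% for YY1 and 63.8% for SP1, so the SP1 share of the bound members was no higher than that of bound genes in general. A window without these letters says nothing of the factor.

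The median GC content of the promoter windows was 58.0% in bound and 54.0% in unbound members, against 60.3% over all coding genes with a peak and 56.0% over all coding genes. The median number of CG dinucleotides was 19 and 13 in bound and unbound members, against 22 and 12. By complex, bound genes had the higher median GC in complex IV (60.3% against 53.0%) and complex V (59.7% against 51.5%). They were close to the unbound in complex II (58.0% against 57.7%) and had the lower median in complex III (52.3% against 55%). These medians rest on few genes, 16 bound and 14 unbound in complex IV, 7 and 10 in V, 5 and 3 in II and 5 and 7 in III. The ranges of bound and unbound genes overlapped within each complex, and the difference in direction was not tested. Restricted isoforms had a median of 48.7% GC and 6 CG dinucleotides, and broad isoforms 55.3% and 19. The part of base composition in the difference between isoforms was not tested. The ranges overlapped, as the plot of promoter windows shows: Cox7c was bound with 39.0% GC, and Atp5s (70.0%), Cox5a (69.0%) and Cycs (66.0%) were unbound with more than most. The sequence of the unbound genes was unique for reads of this length in most cases: in 31 of their 35 promoter windows every 36-base sequence occurred 1 time in the genome, and the lowest share was 94.3% (Atp5f1). No member peak had 50% or more of its bases soft-masked as repeats.

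**Figure D5:**
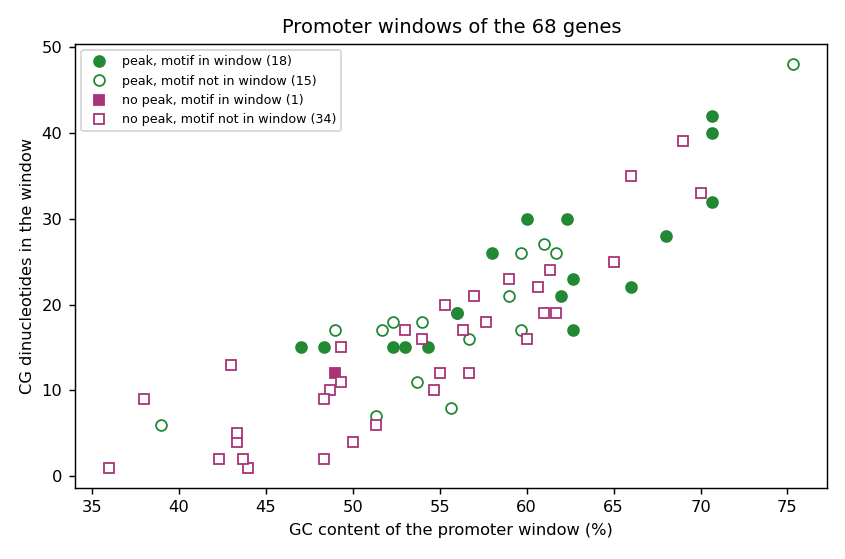
GC content in percent (horizontal axis) and number of CG dinucleotides (vertical axis) in the promoter windows of the 68 records. Green circles are genes with a peak and purple squares genes without; filled symbols hold CCGGAAG in the window, as 18 green and 1 purple (Atp5l) do.

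Several peaks lay at a second gene. In 13 of the 33 cases another protein-coding gene had a start within 1000 bp of the same peak, and in 12 of these it was on the opposite strand. Partners of complex II genes included Cpsf7, a factor of mRNA 3′ end formation (Sdhaf2), and Timm8b, a chaperone of mitochondrial import (Sdhd). Those of complex III were Lrrc41 (Uqcrh) and Gdf9, an oocyte growth factor (Uqcrq). In complex IV they were Emc8 and the overlapping Gm27021 (Cox4i1), Cutc (Cox15), Adprm (Sco1), Surf2 (Surf1) and, on the same strand, Gm21987 (Cox17). In complex V they were Haus1, a subunit of the augmin complex (Atp5a1), Kin (Atp5c1) and Kctd2 (Atp5h). A peak cannot be assigned to either gene of such a pair. Members with a coding start of the opposite strand within 1000 bp of their own had a peak in 12 of 18 cases (66.7%, 43.7 to 83.7) and the others in 21 of 50 (42.0%, 29.4 to 55.8). Over all coding genes these shares were 48.4% and 14.0%. Among genes with a peak, 12 of the 33 members had such an opposite start, against 1134 of the 3880 coding genes. The share of peaks that lie at a second gene was not counted over all coding genes.

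The 35 unbound records lay a median of 68051 bp from the nearest peak. Counted from the nearest transcript start, only 6 were within 10 kb, namely Sdhaf1, Cyc1, Sdha, Cox7b, Uqcc3 and Atp5j2, and 14 were beyond 100 kb. In 24 of the 35 the nearest peak covered the start of another protein-coding gene. The same share was not counted over all unbound coding genes. Of the 6782 peaks in the list, 3459 lay within 1000 bp of a coding gene start.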

How the data were processed

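Per the labels and the study's methods, the authors trimmed reads of 36 bases with Trimmomatic (base quality 20, at least 30 bases kept), aligned them to mm10 with bowtie and called peaks with MACS2 against the input at a q value cutoff of 0.01. The versions of these tools are not given in the sources used here. The deposited list gives positions, and its score column is empty, so peak positions and widths were the values used. Starts were taken as 0-based and are given 1-based. Positions were set on GRCm38.p6 and GENCODE M21. The main start is that of the coding transcript ranked first by APPRIS.

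The members and lists were chosen with earlier results of these data known. Every member was accounted for. Named with values were isoform families, unbound genes, the 5 widest and 3 narrowest peaks, peaks that cover no start, lack CCGGAAG or are shared, and key subunits. RefSeq promoter records (GRCm38.p6) matched 53 of the 68 records by Entrez identifier. The RefSeq starts, the main start alone and Atp5o counted 1 time were alternatives chosen after seeing the data. With 1 library there was no test. In simulated data, all 500 planted motifs and all 499 planted peaks near starts were found. The motifs were planted in sequences of A and T alone, and the peaks were judged by the same distance rule. This checks the counting steps only and says nothing of the real peaks. Scripts ran in Python 3.11.15 with pysam 0.24.0, samtools 1.23.1, scipy 1.17.1 (intervals), pandas 2.3.3, numpy 2.4.6, matplotlib 3.10.9 and numba 0.67.0. Expression arrays and the values in the paper's supplementary tables were not used here. The name of 1 gene that shares a peak with a member is not reported here.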

Additional observations from a re-analysis of the deposited data

How the results depend on the processing

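The count of members with a peak stayed between 30 and 34 of 68 under every alternative for the distance, the transcripts, the peak midpoint and soft-masking, and for peaks at or above the median width. A peak over a start was required in the lowest of these, which lost Atp5b, Cox18 and Cox20, and the median width lost Atp5b, Cox7c and Uqcrfs1, also leaving 30. A distance of 2500 bp and the RefSeq starts each gained Sdhaf1 (34). Limiting the list to peaks at or above its upper quartile of width moved the count most, to 18 members: 2 in complex III, 10 in complex IV and 1 in complex V, with 5 in complex II and 5 broad isoforms as before, beside 1844 of all coding genes. With Atp5o counted 1 time the share was 49.3% of 67. Counting GGAA in place of CCGGAAG put the motif in 100% of the member peaks. The middle of the peaks lay a median of 13.5 bp upstream of the nearest start, a value of -13.5, and 2.5 bp downstream of the main start. Shared peaks numbered 11 to 13. No restricted isoform gained a peak under any alternative run, but these settings could hardly have given one. The restricted isoform nearest to a peak, Cox8b, lay 17945 bp from it, and the largest distance tried was 2500 bp. Settings that narrowed the peaks or the starts could only remove calls. Cox4i2, Cox6a2 and Cox8c had no matched RefSeq start. No paired analysis was possible because there is 1 ChIP library. With no count or height for any peak, a gene without a peak may be bound below the authors' cutoff, and the depth at which that would show is unknown.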
